A study of Mus musculus with 6 samples.

Results

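The TNF receptor superfamily is represented here by 10 mouse genes, Tnfrsf1a, Tnfrsf1b, Tnfrsf10b, Tnfrsf11a, Tnfrsf12a, Tnfrsf14, Tnfrsf21, Tnfrsf26, Fas and Cd40. They were chosen by name, through the GENCODE M21 symbol of each identifier in a count table of 55335 genes. Each symbol matched 1 row, and all 10 passed the filter on low counts, which kept 15687 genes. The libraries were total RNA from C57BL/6 BMDMs (macrophages grown from femur and tibia marrow in medium conditioned by L929 cells). The marrow came from young adult male mice, per the study's methods. In 3 control libraries the cells had received PBS and in 3 LPS libraries LPS (lipopolysaccharide, a bacterial cell wall component sensed by Tlr4), each for 1 h. Both groups have the same wild-type genotype, and the labels give no LPS dose.

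Receptors of this superfamily are membrane proteins that bind trimeric ligands, of which TNF is the founding one. Those with a death domain in the cytoplasmic tail, such as TNFR1 and Fas, can recruit adaptors that lead to caspase activation, while many of the others bind TRAF proteins and signal to NF-kB, and some act as decoys. Macrophages both secrete TNF and carry its receptors, so the mRNA levels of both sides are read in the same cells.

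Library totals lay between 37787611 and 41516330 counts. Levels are CPM (counts divided by the library total and brought to a common scale), scaled by edgeR's TMM factors, which were 1.15 in all 3 control libraries and between 0.864 and 0.872 in the LPS libraries. This scaling touches every fold change: the median over all tested genes was a log2 fold change of -0.01 with TMM and -0.42 with library size alone, a shift of -0.40. LPS replicate 3 stood somewhat apart from replicates 1 and 2, with a chi-square per gene of 13.9 and 20.5 against them, while the other pairs within a group had 5.44 to 7.21. All 8 macrophage markers, Adgre1, Csf1r and Lyz2 among them, were tested, and their summed level was 29945 to 31229 CPM in control and 35886 to 36245 CPM in LPS libraries. Of the 8, 6 were higher and 1, Fcgr1 (-0.48), lower by the adjusted p, where 32.9% and 34.9% of all tested genes were. Mertk did not pass, and with library size alone only Cd14 of the 8 had a log2 fold change above 0. Cd14, a part of the LPS receptor, was the one past both criteria, where 10.5% of all tested genes rose past both. It was at 398 CPM in control and 3623 CPM in LPS libraries. The labels number the replicates and name a batch for each, without saying whether they came from separate mice or cultures, so p-values measure the spread between these libraries. In bulk RNA, fewer cells of a type and less RNA per cell cannot be told apart.

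Among the 10 receptors, Cd40, Tnfrsf1b, Fas and Tnfrsf12a rose with LPS past both criteria. These were an absolute log2 fold change above 1 and an adjusted p below 0.05 (edgeR, quasi-likelihood, Benjamini-Hochberg over all tested genes). SE stands for the standard error of a log2 fold change. That is 4 of 10, where 10.5% of all tested genes rose past both. No receptor fell past both, where 10.4% of tested genes did. By the adjusted p alone 8 receptors were higher in LPS, against a background of 32.9%, and 1 was lower, Tnfrsf14, against 34.9%. The remaining one, Tnfrsf11a, did not pass the test. The median log2 fold change of the 10 was 0.62, beside -0.01 over all tested genes. With library size alone, 4 receptors passed the adjusted p upwards and 4 downwards, where 15.01% and 65.9% of all tested genes did. Under that scaling Tnfrsf12a dropped under the fold criterion.

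**Figure D1:**
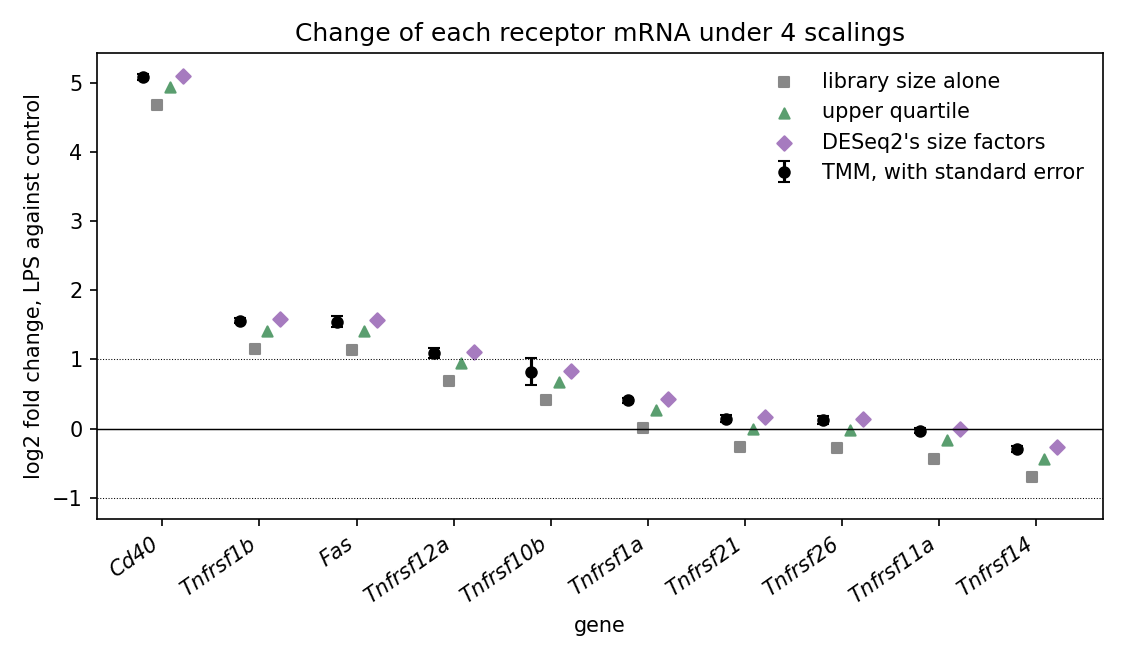
Log2 fold change of LPS against control for each receptor mRNA, with the standard error of edgeR's fit under TMM scaling (black circles) and the values under library size alone, upper quartile and DESeq2's size factors. Cd40 lies at 5.08 and stays far above the dotted line at 1 under all 4 scalings, while Tnfrsf21 and Tnfrsf26 sit near 0 and change sign with library size alone.

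Among receptors without a death domain, Cd40 showed the largest difference of the 10. Cd40 (ENSMUSG00000017652.16, chr2:165055627-165072948, + strand, GRCm38) encodes the receptor through which T cells carrying CD40 ligand stimulate macrophages and B cells. Control libraries held 11.7, 11.6 and 11.1 CPM in replicates 1 to 3, and LPS libraries held 389, 399 and 380 CPM. The groups were far apart, with no overlap. The log2 fold change was 5.08 (SE 0.04, edgeR adjusted p = 1.21e-23), a 33.9-fold difference of the means and higher than in 98.8% of all tested genes. Same-numbered pairs gave differences from 5.05 to 5.10.

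Tnfrsf1b (ENSMUSG00000028599.10, chr4:145213463-145246870, - strand) encodes TNFR2, the TNF receptor that binds TRAF2 and lacks a death domain. It was the most abundant of the 10 before and after LPS. Its levels were 535, 511 and 517 CPM in control libraries and 1518, 1558 and 1529 CPM in LPS libraries. The groups did not overlap, and the log2 fold change was 1.56 (SE 0.03, edgeR adjusted p = 1.55e-17), or 1.16 with library size alone.

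Tnfrsf12a (ENSMUSG00000023905.15, chr17:23675445-23677468, - strand) encodes Fn14, a small receptor for TWEAK. It was at 7.41, 7.15 and 6.83 CPM in control and at 14.7, 15.6 and 15.3 CPM in LPS libraries, with no overlap. The log2 fold change was 1.09 (SE 0.07, edgeR adjusted p = 1.92e-10). It lies close to the fold criterion, and was 0.95 with upper quartile scaling and 0.69 with library size alone, with an adjusted p of 1.02e-07 in the latter.

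Tnfrsf14 and Tnfrsf11a did not share this rise. Tnfrsf14 (ENSMUSG00000042333.16, chr4:154921933-154928563, - strand) encodes HVEM, which binds LIGHT and the inhibitory receptor BTLA. It was at 37.3, 37.2 and 37.5 CPM in control and at 29.1, 30.1 and 32.4 CPM in LPS libraries. All LPS libraries were lower, and the log2 fold change was -0.29 (SE 0.05, edgeR adjusted p = 2.91e-05), or -0.69 with library size alone. Of the exonic stretches of 50 bases of Tnfrsf14, 4.51% also occur in other annotated genes, so reads there may be assigned elsewhere. Tnfrsf11a (ENSMUSG00000026321.7, chr1:105780718-105847981, + strand) encodes RANK, the receptor that drives osteoclast formation from macrophage precursors. It was at 102, 99.3 and 100.1 CPM in control and at 102, 99.6 and 94.2 CPM in LPS libraries, which overlap. Its log2 fold change was -0.03 (SE 0.04, edgeR adjusted p = 0.517), but -0.43 with library size alone (adjusted p = 6.73e-09) and -0.17 with upper quartile scaling (adjusted p = 4.48e-04).

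Of the 4 death domain receptors, all were higher in LPS by the adjusted p under TMM scaling, and 1 of them, Fas, rose past both criteria. Over all tested genes these shares were 32.9% and 10.5%. With library size alone Fas was the only one of the 4 to be higher by the adjusted p, where 15.01% of all tested genes were. Fas (ENSMUSG00000024778.13, chr19:34290666-34327772, + strand) encodes the receptor of Fas ligand, which assembles a caspase-8 activating complex. It was at 6.64, 6.77 and 5.79 CPM in control and at 18.7, 19.7 and 17.8 CPM in LPS libraries. The groups did not overlap, and the log2 fold change was 1.55 (SE 0.08, edgeR adjusted p = 3.34e-12), or 1.14 with library size alone.

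Tnfrsf1a (ENSMUSG00000030341.17, chr6:125349362-125362484, + strand) encodes TNFR1, the TNF receptor with a death domain. Its levels were 80.6, 80.4 and 79.4 CPM in control and 106, 107 and 106 CPM in LPS libraries. The LPS libraries were all higher on this scale, with a log2 fold change of 0.41 (SE 0.03, edgeR adjusted p = 3.50e-09). With library size alone the value was 0.01 (adjusted p = 0.864), so the call rests on the scaling. Before scaling, its counts were 3838, 3632 and 3662 against 3570, 3496 and 3612.

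Tnfrsf10b (ENSMUSG00000022074.6, chr14:69767472-69784411, + strand) encodes the mouse death receptor for TRAIL and was the rarest of the 10. Its counts were 55, 49 and 51 in the control group and 50, 61 and 87 with LPS, and the groups overlap before scaling. The log2 fold change was 0.82 (SE 0.20, edgeR adjusted p = 0.00120), 0.58 without LPS replicate 3 (adjusted p = 0.0177) and 0.42 with library size alone (adjusted p = 0.0591). Of its exonic stretches of 50 bases, 6.21% also occur in other annotated genes, so reads there may be assigned elsewhere.

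Tnfrsf21 (ENSMUSG00000023915.5, chr17:43016555-43089189, + strand) encodes DR6. It was at 26.8, 27.3 and 25.4 CPM in control and at 28.3, 30.0 and 29.5 CPM in LPS libraries. The groups did not overlap. Its log2 fold change was 0.14 (SE 0.05, edgeR adjusted p = 0.0151) and turned to -0.26 with library size alone (adjusted p = 9.21e-05). With upper quartile scaling it did not pass (adjusted p = 0.993). Leaving out control replicate 3 or LPS replicate 2 ended the call (adjusted p = 0.0764 and 0.0549).

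Tnfrsf26 (ENSMUSG00000045362.8, chr7:143607659-143628722, - strand) lies in a cluster with the decoy receptor genes Tnfrsf22 and Tnfrsf23. It was at 27.9, 24.6 and 26.5 CPM in control and at 28.3, 28.6 and 29.5 CPM in LPS libraries. The groups did not overlap but lay close, with a log2 fold change of 0.13 (SE 0.05, edgeR adjusted p = 0.0420). This turned to -0.28 with library size alone (adjusted p = 1.18e-04) and to -0.02 with upper quartile scaling. Without any single library other than control replicate 1 the call was lost, with adjusted p from 0.0603 to 0.199. An antisense gene, E230032D23Rik, covers 107 bases (3.33%) of its exons, and since the strand setting of the counting is not given, reads there cannot be told apart.

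Promoter windows are shown for the receptors past both criteria that had one. RefSeq windows of 300 bases, from 250 before to 50 after the start site on GRCm38.p6, were held for 7 of the 10 receptors, including Tnfrsf1b, Tnfrsf12a and Fas of those past both criteria. Both strands were searched for GGGCGG (GC box), TGANTCA (AP-1) and GGGRNNYYCC, the form of the kB consensus of NF-kB used here. In these, R is A or G, Y is C or T and N is any base. Capitals mark matches to GGGCGG or its complement, and in Fas also to TGANTCA, and no matches overlap. The windows are chr4:145246821-145247120 (- strand) for Tnfrsf1b, chr17:23677400-23677699 (- strand) for Tnfrsf12a and chr19:34290409-34290708 (+ strand) for Fas, each read 5′ to 3′ along its gene.
Tnfrsf1b: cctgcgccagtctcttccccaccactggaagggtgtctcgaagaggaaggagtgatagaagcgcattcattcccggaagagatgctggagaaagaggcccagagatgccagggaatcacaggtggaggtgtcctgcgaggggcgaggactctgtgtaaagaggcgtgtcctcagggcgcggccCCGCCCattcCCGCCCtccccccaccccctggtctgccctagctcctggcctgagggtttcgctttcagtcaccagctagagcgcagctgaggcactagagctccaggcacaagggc
Tnfrsf12a: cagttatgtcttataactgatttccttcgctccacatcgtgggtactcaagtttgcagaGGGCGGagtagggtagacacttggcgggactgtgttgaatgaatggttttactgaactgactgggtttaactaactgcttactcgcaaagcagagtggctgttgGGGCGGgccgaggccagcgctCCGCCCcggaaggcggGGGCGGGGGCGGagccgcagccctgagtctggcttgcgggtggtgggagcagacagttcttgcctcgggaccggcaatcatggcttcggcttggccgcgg
Fas: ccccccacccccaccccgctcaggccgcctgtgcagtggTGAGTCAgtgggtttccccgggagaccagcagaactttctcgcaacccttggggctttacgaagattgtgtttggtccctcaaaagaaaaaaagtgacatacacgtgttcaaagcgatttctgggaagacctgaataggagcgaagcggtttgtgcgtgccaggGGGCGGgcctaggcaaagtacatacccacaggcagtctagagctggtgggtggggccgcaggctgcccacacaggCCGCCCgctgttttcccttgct
The Tnfrsf12a window held 5 GC boxes, between -191 and -39 from the start, and the Tnfrsf1b window held 2. Fas had 2 GC boxes and a single AP-1 match, TGAGTCA at -211 to -205. Tnfrsf11a, which did not pass the test, also had 5 GC boxes, Tnfrsf21 had 1, and Tnfrsf1a and Tnfrsf14 had 0. None of the 7 windows held the kB consensus, which 8.46% of 32851 windows in the table held, and 7 windows are too few to set against that share. No window was held for Cd40, Tnfrsf10b or Tnfrsf26, so their promoters were not read. The corresponding shares were 7.81% for TGANTCA and 35.7% for GGGCGG. A match describes letters in the window and is not a binding site, and an absent one says nothing of the factor.

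To compare receptors with each other, levels were divided by the length of the merged exons. In control libraries Tnfrsf1b led with 136 ± 3.23 CPM per kb (SD, n = 3), followed by Tnfrsf1a with 30.9 ± 0.255, Tnfrsf14 with 26.0 ± 0.0773 and Tnfrsf11a with 16.8 ± 0.229. Below them came Tnfrsf26 (8.19), Tnfrsf21 (6.45), Tnfrsf12a (3.69), Cd40 (3.37), Fas (3.10) and Tnfrsf10b (0.205 CPM per kb). Neighbours in this order did not overlap in their libraries except Cd40 and Fas, whose order also turned when the longest transcript was used as length.

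In LPS libraries Tnfrsf1b was still first with 402 ± 5.43 CPM per kb (SD, n = 3), and Cd40 moved from rank 8 to rank 2 with 114 ± 2.76. Tnfrsf1a had 41.1 ± 0.197, Tnfrsf14 21.2 ± 1.15 and Tnfrsf11a 16.5 ± 0.662 CPM per kb. Fas (9.08) and Tnfrsf26 (8.95) overlapped in their libraries, and Tnfrsf12a (7.87), Tnfrsf21 (7.12) and Tnfrsf10b (0.362 CPM per kb) followed. With the longest transcript as length, Tnfrsf12a stood above Fas and Tnfrsf26.

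**Figure D2:**
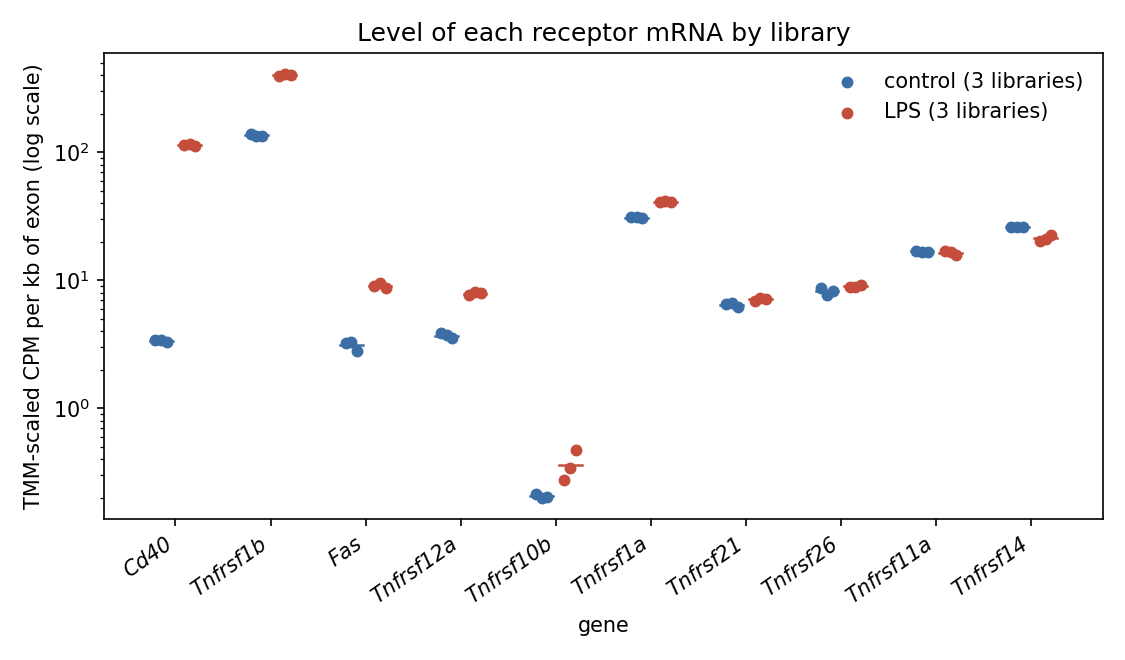
Level of each receptor mRNA in TMM-scaled CPM per kb of exon on a log axis, with 1 point per library and a line at the mean of each group. The LPS points of Cd40 sit near 114 and those of Tnfrsf1b near 402, while the control points of Cd40 sit near 3.37, beside those of Fas and Tnfrsf12a.

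The summed level of the 10 receptors per length was 235 ± 4.31 in control and 629 ± 8.42 CPM per kb in LPS libraries (SD, n = 3). That is a 2.67-fold difference under TMM scaling, and it depends on the scaling. Tnfrsf1b made up 58.0% ± 0.355 of the summed level in control and 64.0% ± 0.137 in LPS libraries. The Cd40 share was 1.43% ± 0.0311 in control and 18.2% ± 0.277 in LPS libraries. Over the same libraries the share of Tnfrsf1a went from 13.2% to 6.54%, that of Tnfrsf14 from 11.0% to 3.38% and that of Tnfrsf11a from 7.14% to 2.62%. Shares are relative, so a share can fall while a level does not. They need no scaling between libraries, but they depend on the length used.

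**Figure D3:**
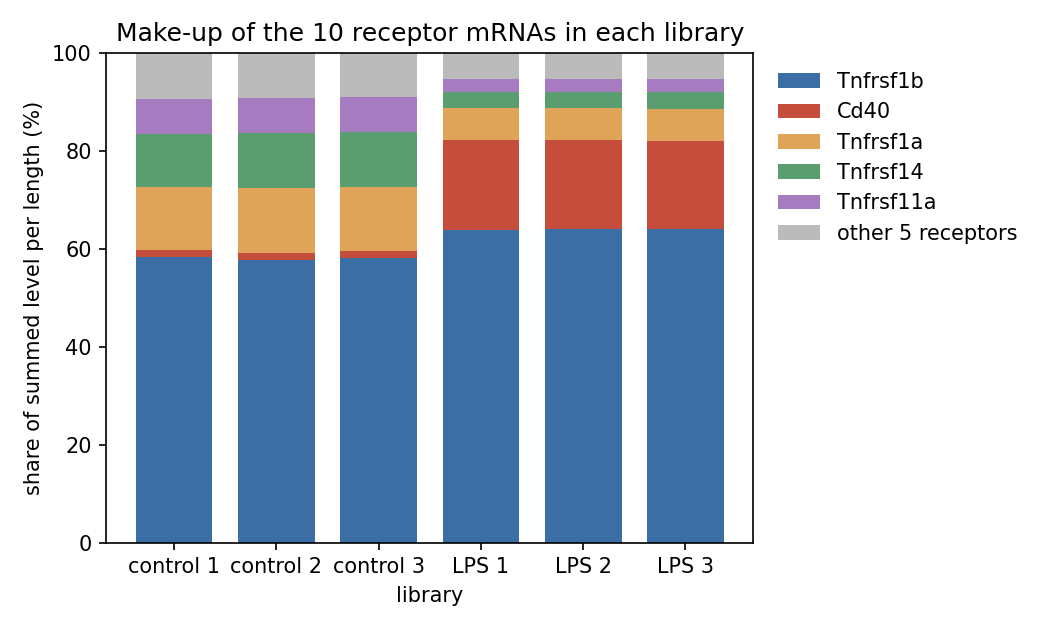
Share of each receptor in the summed level per length of the 10 receptor mRNAs, as stacked bars from 0 to 100% with 1 bar per library. The Cd40 segment is thin in the 3 control bars (1.43% on average) and 18.2% on average in the 3 LPS bars, and bars of the same group look alike.

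Ratios within a library also leave the scaling out. Tnfrsf1b and Tnfrsf1a, the receptors that bind TNF itself, stood at 4.41 ± 0.0937 to 1 per length in control and at 9.78 ± 0.0939 to 1 in LPS libraries (SD, n = 3). The log2 ratio was 2.17, 2.11 and 2.14 in control and 3.28, 3.30 and 3.29 in LPS libraries, a difference of 1.15 with no overlap. The exact two-sided permutation p was 0.1, which is the lowest reachable with 20 splits of 3 against 3 libraries. Relative to Tnfrsf1a, the log2 difference was 4.67 for Cd40, 1.14 for Fas and 0.68 for Tnfrsf12a. It was -0.27 for Tnfrsf21, -0.28 for Tnfrsf26, -0.44 for Tnfrsf11a and -0.70 for Tnfrsf14. The groups did not overlap for any of these 7 (p = 0.1 each by the same exact permutation test). Tnfrsf10b gave 0.38 with overlapping groups (p = 0.2, exact permutation test). How many of all tested genes separate from Tnfrsf1a in this way was not computed, so the non-overlap is only a description. Tnfrsf1a itself was at 0.41 under TMM, Tnfrsf21 at 0.14, Tnfrsf26 at 0.13 and Tnfrsf11a at -0.03. A ratio difference below 0 therefore need not be a fall in level. All 9 ratios share Tnfrsf1a and are not independent; adjusted over the 9 by Benjamini-Hochberg, these exact permutation p-values were 0.1125 for 8 receptors and 0.2 for Tnfrsf10b.

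**Figure D4:**
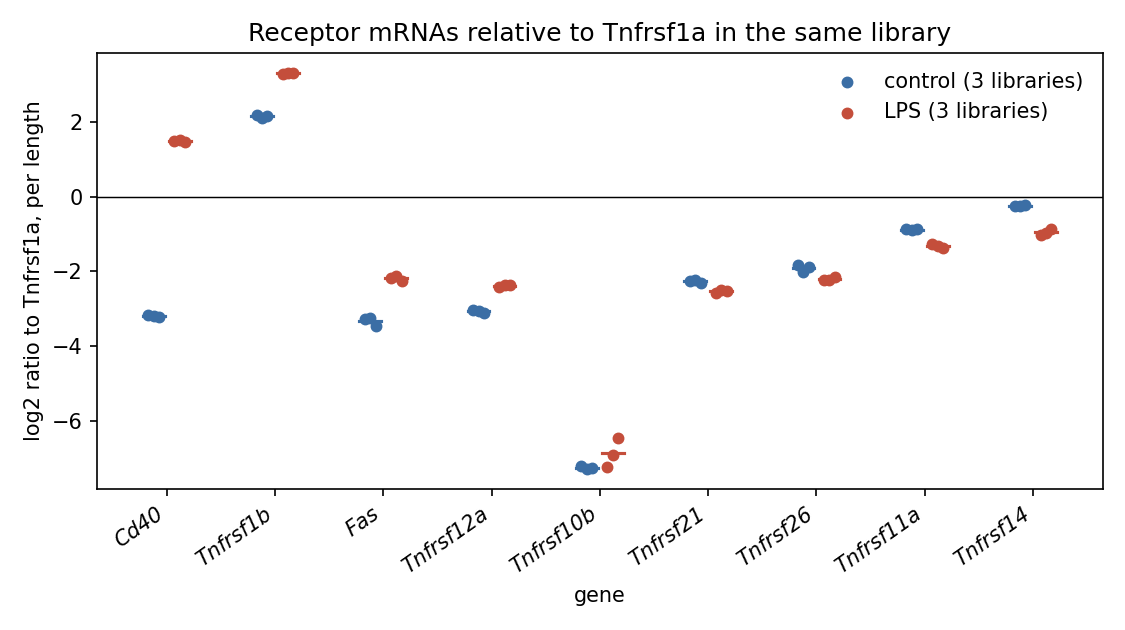
Log2 ratio of each receptor to Tnfrsf1a in the same library, per length, with 1 point per library and a line at each group mean. Cd40 crosses 0, from -3.20 in control to 1.47 in LPS libraries, and Tnfrsf10b is the one receptor whose groups overlap.

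Replicates of the same group lay close together for most receptors. The coefficient of variation over the 3 libraries was 0.479% to 5.40% with LPS for 9 receptors, where counting error alone would give 0.442% to 4.44%. The ends of these ranges belong to different genes. Tnfrsf1a (0.479% against 1.68%), Tnfrsf12a, Tnfrsf21 and Tnfrsf26 lay below their counting error, and Tnfrsf1b, Tnfrsf11a, Tnfrsf14, Fas and Cd40 above it. Tnfrsf10b was the exception, at 27.4% with LPS against 12.3% from counting error, and LPS replicate 3 held its highest value. In control libraries Fas varied most (8.35%, against 5.81% from counting error), followed by Tnfrsf26 (6.32% against 2.86%).

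Ligand genes were counted from a list of 18. Of these, 11 were tested, and 5 rose and 1 fell past both criteria, where 10.5% and 10.4% of all tested genes did. The median log2 fold change was 0.60, beside -0.01 over all tested genes. Tnf, the ligand of both TNF receptors, was at 20.2 ± 1.19 CPM in control and 2302 ± 49.8 CPM in LPS libraries (SD, n = 3), with a log2 fold change of 6.83. The largest differences were those of Tnfsf9 (8.95), the ligand of 4-1BB, and Tnfsf4 (8.17), the ligand of OX40, which had 4 to 7 counts in control libraries. Tnfsf14, whose product LIGHT binds HVEM, rose by 2.70 on the log2 scale, while the HVEM gene Tnfrsf14 was at -0.29. Tnfsf12, the gene of TWEAK, was at 0.19 (edgeR adjusted p = 0.0255), which turned to -0.22 with library size alone. Lowest were Tnfsf8 (-1.29) and Tnfsf10 (-0.65), the gene of TRAIL, the ligand of the Tnfrsf10b product. Ligand genes for Fas, CD40 and RANK were at or near the floor of 3 counts: Fasl had 0 to 3, Cd40lg 0 to 1 and Tnfsf11 1 to 4 counts per library, and Lta had 0 to 5.

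The adaptors and regulators behind the receptors were read from lists of partners. Among 8 TRAF, cIAP and NIK genes, all tested, 5 rose and 0 fell past both criteria (10.5% and 10.4% of all tested genes), with a median log2 fold change of 1.14. Traf1, with 20.2 CPM in control and 322 CPM in LPS libraries (16.0-fold), and Birc3 (2.66), which encodes cIAP2, were highest, Traf2 was at 0.53, and Traf5 at -0.15 did not pass the test, though it was at -0.55 with library size alone (edgeR adjusted p = 2.59e-06). Among 9 genes of death signalling, all tested, 2 rose and 0 fell past both criteria, near the 10.5% and 10.4% of all tested genes, and the median was -0.01, as over all tested genes. The risers were Tnfaip3 (6.70), which encodes the ubiquitin editor A20, and Cflar (3.27), which encodes the caspase-8 inhibitor cFLIP. By the adjusted p alone, 3 of the 9 were higher and 3 lower, where 32.9% and 34.9% of all tested genes were. The third higher gene was Cyld (0.42), which encodes a deubiquitinase, at 0.01 with library size alone. The lower ones were Ripk1 (-0.62), Fadd (-0.50) and Tradd (-0.43), the kinase and adaptors of TNFR1 and Fas complexes. Cyld and Tradd were named after their values were seen. Of 5 genes for receptor shedding, all tested, 1 rose past both criteria (10.5% of all tested genes did), Rhbdf2 (1.70), the iRhom partner of the protease ADAM17. By the adjusted p alone under TMM scaling all 5 were higher, where 32.9% of all tested genes were. Adam17 itself, named after its values were seen, was at 0.49, and at 0.09 with library size alone. Timp3, an inhibitor of that protease, was at 0.90, Rhbdf1 at 0.34 and Adam10 at 0.26, where the latter pair turned to -0.06 and -0.14 with library size alone. The Rhbdf1 groups overlapped, and its adjusted p was 0.0357 with edgeR, 0.0648 with DESeq2 and 0.0526 with limma voom.

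The other receptors of the superfamily numbered 18 in the list, and 11 of them were tested. Past both criteria, 2 rose and 1 fell, close to the background of 10.5% and 10.4%, and the median log2 fold change was 0.49. Tnfrsf9 (4-1BB, the receptor of the Tnfsf9 product) counted 7, 9 and 2 reads in the control group and 47, 35 and 41 with LPS, a log2 fold change of 3.21. Tnfrsf8 (CD30) counted 96, 86 and 75 against 225, 191 and 198 (1.73). Relt was lower, at 281, 258 and 260 against 54, 49 and 48 reads (-1.93). Tnfrsf17 (BCMA) had 5 to 19 counts and did not pass the test (-0.52), though with library size alone it was at -0.92 (edgeR adjusted p = 0.0371).

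Genes within 50 kb of a receptor gene numbered 41, of which 20 were tested. Past both criteria 3 of them rose and 1 fell, beside a background of 10.5% and 10.4%. These 4, named after their values were seen, were Tnfrsf8 near Tnfrsf1b (1.73), Mmp25 near Tnfrsf12a (2.74), Gm27818 within the Fas gene (3.50) and the antisense gene E230032D23Rik at Tnfrsf26 (-1.01). Ncoa5, the tested neighbour of Cd40, was at 0.74.

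Several of the receptors are also used by other blood cells, so markers of these were read. Of 5 dendritic cell markers 3 rose past both criteria (10.5% of all tested genes did), and their summed level was 3.03 to 3.86 CPM in control and 8.55 to 8.97 CPM in LPS libraries. The 5 B cell markers together had 2.88 to 3.17 and 2.88 to 3.64 CPM. Of the 2 that were tested, 0 rose past both criteria, where 10.5% of all tested genes did. For T and NK cells the 7 markers summed to 21.2 to 23.3 and 30.9 to 31.5 CPM, nearly all of it Cd4, while Cd3e, Cd3d and Cd3g had at most 9 counts. The 7 neutrophil markers summed to 40.8 to 43.6 and 52.7 to 56.8 CPM, with Ly6g at 0 to 3 counts. Fibroblast markers (6) summed to 14.7 to 15.9 and 18.0 to 21.1 CPM, and endothelial markers (4) to 35.4 to 38.6 and 45.1 to 48.7 CPM. Of the 6 fibroblast and 3 endothelial markers tested, 1 in each list rose past both criteria, where 10.5% of all tested genes did. These were Pdgfrb (1.31) and Cdh5 (1.84), both named after their values were seen. Kdr, at 34.7 CPM in control and 41.1 CPM in LPS libraries, made up most of the endothelial sum. The part of other cells in the receptor values was not tested.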

How the data were processed

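Total RNA of 6 BMDM libraries, 3 control (PBS) and 3 LPS at 1 h, was prepared with a stranded kit that depletes globin RNA. Per the submitters' processing notes and the paper's methods, the authors checked reads with FastQC 0.11.9, aligned them to GRCm38 with HISAT2 2.1.0, used SAMtools 1.17 and counted reads per gene with featureCounts 2.0.0. The deposited values are raw counts. Annotation release, strand setting and handling of multi-mapping reads are not given in the sources used here. Of 55335 identifiers, 54587 were identical to GENCODE M21 and 55154 matched without the version, and 181 had no symbol.

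Groups and replicate numbers came from the labels. LPS and control were compared in R 4.3.3 with edgeR 4.0.16 (filterByExpr, TMM, quasi-likelihood test, Benjamini-Hochberg adjustment over 15687 genes, without a batch term). Standard errors were derived from the F statistic. The precision is set by 37787611 to 41516330 counts per library, and 3 counts correspond to 0.0630 to 0.0919 CPM. The floor of 3 counts and the stated counting errors leave out the spread between libraries, which the standard errors and SDs include. Levels per length used the merged exons of GENCODE M21. Single ratios were tested by exact two-sided permutation over libraries.

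All 10 receptors are named. From each further pathway list the tested genes with the 2 highest and 2 lowest log2 fold changes are named, and of the ligands also Tnf and the ligands of these receptors. Genes named outside this rule, after their values were seen, are marked in the text or are cell type markers and neighbours. The receptors and lists were chosen with earlier results of these data known, so their counts are descriptions. A further marker list is not reported here.

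The labels give same-numbered libraries the same batch, which is where the pairing comes from. Around their group means, libraries of the same number correlated at -0.0227 to 0.157 across genes (mean 0.0634), and those of different numbers had a mean of -0.0317. Alternatives were scaling by library size alone, upper quartile or DESeq2's size factors, 2 other count filters, DESeq2 1.42.0, limma voom (limma 3.58.1), a replicate block, omission of the 10 most abundant genes or of each library in turn, and the longest transcript as length.

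The fit was tested on simulated counts for this comparison, with 15215 of 15687 genes in the fit and 200 genes given a log2 change of 2. edgeR recovered 191 and called 0 unchanged genes, DESeq2 recovered 184 and called 0, and voom recovered 191 and called 6. With only 200 changed genes, the simulation does not test the shift between scalings seen in these data. Nor does it test changes near the fold criterion.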

Additional observations from a re-analysis of the deposited data

How the results depend on the processing

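Cd40, Tnfrsf1b and Fas kept their direction and both criteria under all 15 alternatives, with log2 fold changes of 4.68 to 5.10, 1.16 to 1.58 and 1.14 to 1.59. Scaling moved the other receptors most. With library size alone, receptors with an adjusted p under 0.05 numbered 4 upwards (8 under TMM) and 4 downwards (1 under TMM). Of all tested genes, 15.01% passed upwards (32.9% under TMM) and 65.9% downwards (34.9% under TMM). Genes that fell past both criteria numbered 2964 with library size alone, in place of 1624. Upper quartile scaling gave 6 receptors upwards and 2 downwards, and the shares of all tested genes are not given for it. A filter of 10 counts in every library gave 2168 genes past both criteria in place of 3277, and 1027 that fell, since fewer genes were tested. Signs turned with library size alone for Tnfrsf21 (-0.26), Tnfrsf26 (-0.28), Rhbdf1 (-0.0596), Adam10 (-0.14) and Tnfsf12 (-0.22), and with upper quartile scaling for Tnfrsf26 (-0.0155). The cause was not tested. With the replicate block, 4 receptors rose and 0 fell past both criteria, 8 and 1 passed the adjusted p, and no call on a receptor changed. In the paired test the log2 ratio of Tnfrsf1b to Tnfrsf1a was higher by 1.15 in LPS than in control (exact p = 0.25, the smallest that 3 pairs allow). Leaving out single libraries, 6 to 8 receptors passed the adjusted p upwards, and Tnfrsf21 and Tnfrsf26 were those that lost it. Tnfrsf10b, with 49 to 87 counts per library, is limited by depth and by the spread between LPS libraries (27.4%, against 12.3% from counting error). Depth also limits the ligand genes at the floor.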
